A study of Homo sapiens with 8 samples.

Results

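The APOBEC3 genes encode 7 cytidine deaminases, APOBEC3A, APOBEC3B, APOBEC3C, APOBEC3D, APOBEC3F, APOBEC3G and APOBEC3H, which lie in this order next to each other on chromosome 22 with no other protein-coding gene between them. They were found on the array by RefSeq accession, which matched 8 probes among 42391, 1 per gene and a second for APOBEC3F, and where a gene had more than 1 probe the one brightest on average was taken. The 7 genes are set among 20296 genes that could be named. The samples were MCF10A cells, a non-tumorigenic human mammary epithelial line, either p53+/+ or p53-/-, taken untreated (0 h) or at 12, 24 and 48 h after a 2 h exposure to doxorubicin (adriamycin, ADR), a drug that breaks DNA by trapping a topoisomerase. The labels give a dose of 0.5 µg/ml, and the methods of the study give a higher one. RNA from each genotype and time went to 1 single-colour array, 8 arrays in all, so no value has a replicate. The sources used here do not say how the p53-/- line was made or whether it is 1 clone.

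APOBEC3 enzymes convert cytosine to uracil in single-stranded DNA. They restrict retroviruses and mobile elements by mutating the DNA copied from their RNA, and uracils left in the genome are normally removed by uracil DNA glycosylase and base excision repair. APOBEC3A and APOBEC3B can reach nuclear DNA and are the members most often linked to the C-to-T and C-to-G mutations seen in many tumours, breast cancer among them. APOBEC3D, APOBEC3F, APOBEC3G and APOBEC3H are known for acting on HIV-1 that lacks Vif, the viral protein that has them degraded.

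Levels are log2 values of the spot intensity relative to the 75th percentile of the same array, so 0 is the level below which 75% of the probes lie. That percentile ranged from 399.1 to 577.2 intensity units for p53+/+ and from 508.0 to 669.8 for p53-/-, so the scaling moves treated p53+/+ values up relative to treated p53-/- values. All p53-/- arrays lay in one column of the slide and all p53+/+ arrays in the other, so slide position and genotype cannot be told apart. On the array labelled p53+/+ at 48 h 0 spike-in controls were above background, against 6 on each of the others.

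The labels were checked with CDKN1A, the gene of the cell cycle inhibitor p21 and a textbook p53 target. CDKN1A read 3.29, 3.38 and 3.43 in p53+/+ cells at 12, 24 and 48 h, whereas p53-/- cells gave -0.09, 0.19 and 0.36. At 0 h it was -0.32 on the array labelled p53+/+ and -2.18 on the p53-/- array, a 3.62-fold difference. DCN, the gene of decorin and a fibroblast marker, read 6.57 on the array labelled p53+/+ at 0 h, next to 6.56 to 6.91 on the p53-/- arrays and 2.84 and 3.03 in p53+/+ cells at 12 and 24 h, with a like value at 48 h. A change with ADR and a doubt about the label of that array cannot be told apart here, so the members' changes from 0 h in p53+/+ cells are also given against the p53-/- array at 0 h.

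APOBEC3C, APOBEC3F, APOBEC3G and APOBEC3H were higher after ADR in p53+/+ cells than in p53-/- cells at every treated time, and APOBEC3D at 12 and 24 h. APOBEC3B followed another course, with a late low value in p53+/+ cells and its highest value in p53-/- cells. APOBEC3A was not well above background on any array.

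**Figure D1:**
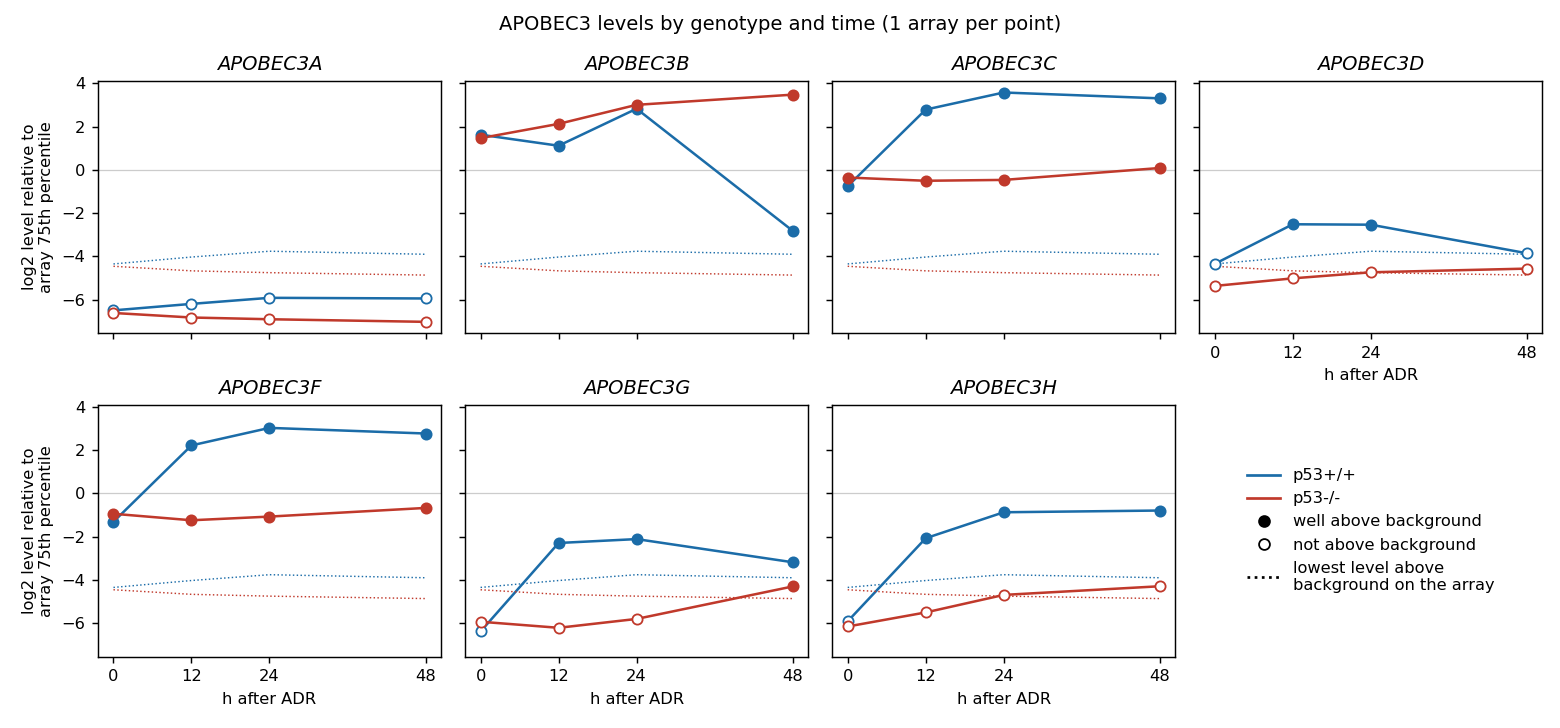
Log2 level relative to the 75th percentile of the array (vertical axis) against hours after ADR (horizontal axis) for the 7 APOBEC3 genes, 1 array per point, p53+/+ in blue and p53-/- in red, with open points where the probe was not well above background and dotted lines at the lowest level above background on each array. APOBEC3C, APOBEC3F, APOBEC3G and APOBEC3H part by genotype from 12 h, APOBEC3B reads -2.81 in p53+/+ cells at 48 h, and APOBEC3A stays under the dotted lines.

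APOBEC3C has a single deaminase domain and is a weak inhibitor of HIV-1 that also limits LINE-1 elements. It was printed in 10 spots and was well above background on all 8 arrays. Its level in p53+/+ cells was 2.79, 3.58 and 3.31 at 12, 24 and 48 h, with -0.75 on the array labelled p53+/+ at 0 h. The p53-/- series was -0.35, -0.50, -0.46 and 0.09 at 0, 12, 24 and 48 h. The 3 treated p53+/+ arrays were all above the 5 others, with no overlap. The share of all probes that part in this way was not counted. Of the 28947 probes above background on at least 1 array, 4.53% were at least 2-fold above p53-/- cells at all 3 treated times. A like course was common, with a Pearson r over 0.95 to APOBEC3C in 408 of the 11828 genes compared. The difference between genotypes was 9.82-fold at 12 h, 16.4-fold at 24 h and 9.31-fold at 48 h. Its technical standard error (SE), which covers only the spread between spots, was 0.045, 0.046 and 0.035 on the log2 scale. At 0 h the log2 difference was -0.40, the array labelled p53+/+ being the lower.

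APOBEC3F, which carries a pair of deaminase domains and acts on HIV-1, followed almost the same course. Its level in p53+/+ cells was 2.22, 3.03 and 2.77 at 12, 24 and 48 h, with -1.31 on the array labelled p53+/+ at 0 h. Without p53 the levels were -0.94, -1.24, -1.07 and -0.67 at 0, 12, 24 and 48 h. Again the 3 treated p53+/+ arrays stood above the 5 others without overlap, by 11.0-, 17.2- and 10.8-fold over p53-/- cells at the same times. Here too the share of all probes was not counted, and 423 of the 11828 genes compared had an r over 0.95 to APOBEC3F. The second APOBEC3F probe, designed to another transcript, read 1.84, 2.32 and 1.76 in treated p53+/+ cells and -1.20, -0.25 and -0.59 in treated p53-/- cells, and its 0 h levels were -1.20 on the array labelled p53+/+ and -1.10 on the p53-/- array. Both probes gave the same order of groups, with a smaller difference on the second.

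The levels of APOBEC3C and APOBEC3F had a Pearson r of 0.999 over the 8 arrays, and those of the APOBEC3F probes one of 0.978. These correlations are descriptions over 8 arrays that share genotype and time. The related sequences of APOBEC3 transcripts can share signal on a probe. The probe sequences were not used here, and how much of a probe's signal comes from a related member was not tested.

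APOBEC3H, a member with a single deaminase domain whose stability differs between human haplotypes, was above background only on the treated p53+/+ arrays. Its level was -2.07, -0.87 and -0.79 at 12, 24 and 48 h in p53+/+ cells, all well above background, and -5.91 on the array labelled p53+/+ at 0 h, not above background. The p53-/- arrays gave -6.15, -5.50, -4.69 and -4.29 at 0, 12, 24 and 48 h, none of them well above background, although 1 of its 2 spots was at 24 and at 48 h. Since the p53-/- side has only a bound, APOBEC3H was at least 6.05-fold higher in p53+/+ cells at 12 h, at least 14.0-fold at 24 h and at least 11.3-fold at 48 h. A bound of this kind sets the level on the brighter array against the lowest level that was above background on the dimmer array, or against the gene's own level there if that was higher.

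APOBEC3G, the best known inhibitor of HIV-1 lacking Vif, was dimmer. Its level in p53+/+ cells was -2.29, -2.11 and -3.18 at 12, 24 and 48 h, and -6.38, not above background, on the array labelled p53+/+ at 0 h. Without p53 it read -5.93, -6.21 and -5.80 at 0, 12 and 24 h, not above background, and -4.30 at 48 h, where it was. It was thus at least 5.17-fold higher in p53+/+ cells at 12 h and at least 6.20-fold at 24 h. At 48 h, measured on both sides, it was 2.18-fold higher. The genotypes came closer at 48 h from both sides.

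APOBEC3D, which is closely related to APOBEC3F and also acts on HIV-1, had a probe printed in only 1 spot. It was above background on 2 arrays, at -2.51 and -2.53 in p53+/+ cells at 12 and 24 h. It read -3.85 in p53+/+ cells at 48 h and -4.34 on the array labelled p53+/+ at 0 h. The p53-/- arrays read -5.36, -5.01, -4.73 and -4.56 at 0, 12, 24 and 48 h. It was at least 4.43-fold higher in p53+/+ cells at 12 h and at least 4.61-fold at 24 h, and no fold can be given at 48 h.

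APOBEC3B, a nuclear member with a pair of deaminase domains, was well above background on all 8 arrays. Cells without p53 had levels of 1.47, 2.13, 3.01 and 3.48 at 0, 12, 24 and 48 h, which is 1.58-, 2.91- and 4.04-fold above 0 h at the 3 treated times. Cells with p53 had 1.12, 2.83 and -2.81 at 12, 24 and 48 h, and 1.63 on the array labelled p53+/+ at 0 h. The level at 48 h in p53+/+ cells was the lowest of the 8, 49.8-fold below that at 24 h in the same genotype and 78.3-fold below p53-/- cells at 48 h. At 24 h the difference between p53+/+ and p53-/- cells was -0.18 on the log2 scale, with a technical SE of 0.069. At 12 h p53+/+ cells were 2.00-fold below. The low value comes from 1 array, the one labelled p53+/+ at 48 h on which no spike-in was above background. Its 2 spots of the probe were both well above background, with an SD of 0.20.

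**Figure D2:**
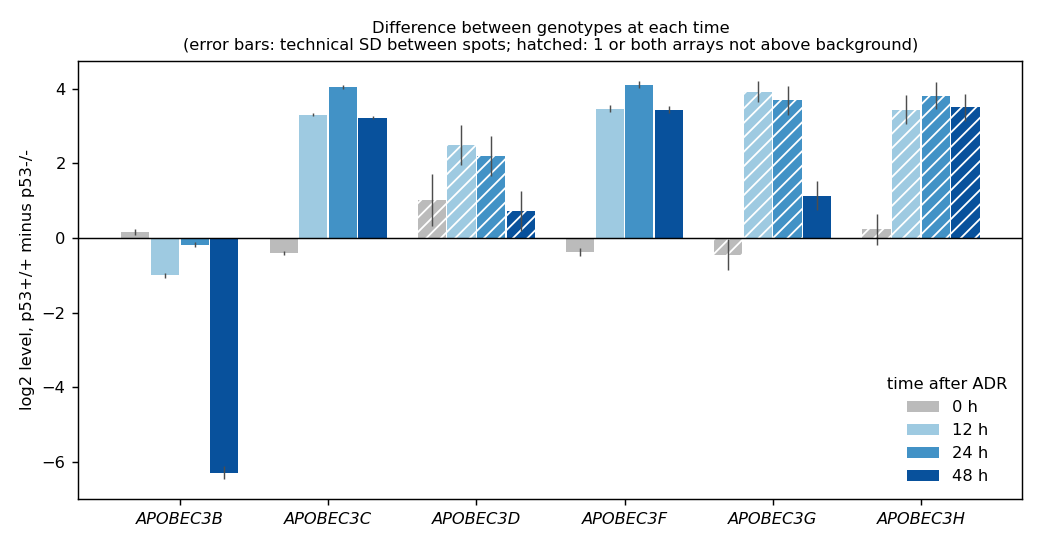
Difference in log2 level, p53+/+ minus p53-/-, at the same time (vertical axis) for the 6 genes that were above background on at least 1 array (horizontal axis), with a bar for each time after ADR. Error bars are the technical SE of the difference, from the spread between spots, which the title of the figure calls technical SD. APOBEC3C and APOBEC3F lie between 3.22 and 4.10 at the treated times and just below 0 at 0 h, while the bar of APOBEC3B at 48 h reaches -6.29; hatched bars rest on an array where the probe was not above background.

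APOBEC3A, a single-domain member found mainly in myeloid cells, was not well above background on any array. It read -6.49 on the array labelled p53+/+ at 0 h and -6.19, -5.91 and -5.94 at the treated times, and -6.61, -6.82, -6.90 and -7.02 in p53-/- cells. APOBEC1, the deaminase that edits the apolipoprotein B transcript, was likewise above background on none. It gave -6.42, -6.11, -5.86 and -5.97 with p53 at the 4 times, and -6.44, -6.67, -6.76 and -6.88 without. The small drift of APOBEC3A thus has the same order on a probe of an undetected relative, and no fold is given for it.

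By size, with a rise taken as at least 2-fold and well above background on the higher array, 4 of the 7 genes, APOBEC3C, APOBEC3F, APOBEC3G and APOBEC3H, were up at all 3 times in p53+/+ cells, where 6.0% of the 28947 probes above background on at least 1 array were. With the p53-/- array at 0 h as the baseline the same 4 genes passed. APOBEC3A is not among the 28947 probes, so only 6 of the 7 genes could be counted. None of the 7 was down at all 3 times in p53+/+ cells (6.09% of probes), and none was up (2.26%) or down (1.51%) at all 3 times in p53-/- cells. The same 4 genes were at least 2-fold above p53-/- cells at all 3 treated times, as were 4.53% of probes, although APOBEC3G dropped out with no scaling, with normexp background correction and with a limit of 3-fold. APOBEC3H was above background only on treated p53+/+ arrays. It entered the probes counted by its high side, so it adds little to either count of 4. None of the 7 was at least 2-fold below at all 3 (5.03% of probes). No chance level belongs to these counts, as each condition had 1 array.

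The fit across all probes was made with limma, with the 3 treated times of a genotype standing in for replicates, so its p-values set a difference against the movement over time and not against the spread between cultures. Of the 28947 probes, 8.73% were higher and 8.85% lower in treated p53+/+ cells than in treated p53-/- cells at an adjusted p under 0.05. This comparison uses no array of 0 h. Among the 7 genes 5 were higher, namely APOBEC3C, APOBEC3D, APOBEC3F, APOBEC3G and APOBEC3H, and none was lower. APOBEC3D and APOBEC3H were above background only on treated p53+/+ arrays, and a probe that enters the fit by that side is bound to differ, so the 2 add little to the count. APOBEC3A did not enter the fit.

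The difference for APOBEC3C was 3.52 (SE 0.28), or 11.4-fold, with an adjusted p of 0.000959 in limma. For APOBEC3F it was 3.67 (SE 0.28), or 12.7-fold, with an adjusted p of 0.000811, and 2.65 (SE 0.30) with an adjusted p of 0.00317 on the second probe. The call of the second probe was kept in 13 of 14 alternatives, with a highest adjusted p of 0.0552 in limma. The estimates 3.52 and 3.67 were larger than those of 99.0% and 99.1% of all probes. The other 3 were not above background on most p53-/- arrays, so the sizes of APOBEC3H and APOBEC3G are given as bounds. APOBEC3H and APOBEC3D entered the fit by their high side, so their p-values are no support for a difference. APOBEC3H was at least 9.86-fold higher with an adjusted p of 0.00435, and without the arrays of 24 h the call was lost (adjusted p 0.0992). APOBEC3G, measured on 1 of the 3 treated p53-/- arrays, was at least 4.12-fold higher with an adjusted p of 0.0157, lost without the arrays of 12 h or of 24 h (adjusted p 0.0884 and 0.194 in limma). APOBEC3D passed with an adjusted p of 0.025 in limma. Its p53+/+ reading at 48 h was not above background, so no bound is given over the 3 treated times. The call of APOBEC3D was lost in 4 of 14 alternatives. These were no scaling (adjusted p 0.0727), without the arrays of 12 h (0.138) or of 24 h (0.226) and time as a block (0.0506). APOBEC3B did not pass, at -2.49 (SE 1.34) with an adjusted p of 0.249, and -0.90 without the p53+/+ array of 48 h.

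The split between higher and lower probes depends on the scaling. It was 2526 higher and 2561 lower as given, 1365 and 8028 with no scaling, 1135 and 6834 with spike-in scaling, which leaves out the p53+/+ array of 48 h, and 5338 and 3170 with a floor on the signal. Without scaling the median of all probes moved to -0.508 and with spike-in scaling to -0.623. APOBEC3C and APOBEC3F stayed higher in treated p53+/+ cells in every alternative tried, by 2.91 to 3.67 and by 3.06 to 3.78. The second APOBEC3F probe was higher by 2.16 to 2.81.

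Against 0 h, 3.83% of probes rose and 3.07% fell in p53+/+ cells in the limma fit. APOBEC3C rose by 3.98 (SE 0.40, adjusted p 0.004) and APOBEC3F by 3.98 (SE 0.39, adjusted p 0.00378), and against the p53-/- array at 0 h by 3.57 (adjusted p 0.00614) and 3.61 (adjusted p 0.00575). APOBEC3G and APOBEC3H were not above background at 0 h, so their rises are bounds. APOBEC3G rose at least 3.52-fold (adjusted p 0.0333), or at least 3.79-fold against the p53-/- array at 0 h (adjusted p 0.0478). APOBEC3H rose at least 8.57-fold (adjusted p 0.0108), or at least 9.23-fold against that array (adjusted p 0.00889), and it entered the fit through the treated p53+/+ arrays, where it is high. All 4 calls were lost without the arrays of 24 h, at adjusted p of 0.0636 to 0.195. The call of APOBEC3G was also lost without the arrays of 12 h (0.0674), with no scaling (0.0564) and with time as a block (0.0788). APOBEC3D, also not above background at 0 h, did not pass (adjusted p 0.20, or 0.0514 against the p53-/- array at 0 h), nor did APOBEC3B, at -1.25 (adjusted p 0.749), or -1.09 against that array (adjusted p 0.791), although APOBEC3D did with normexp (0.0342), without the arrays of 48 h (0.0364) and without only the p53+/+ array of 48 h (0.0264). Without p53 0.00691% of probes rose and 0.0415% fell, and none of the 7 genes passed in limma (none also at an unadjusted p under 0.05).

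Whether the change differed between genotypes was tested by the interaction, in which 0.85% of probes were positive and 0.895% negative at an adjusted p under 0.05 in limma. APOBEC3C passed at 3.92 (SE 0.56, adjusted p 0.031) and APOBEC3F at 4.03 (SE 0.55, adjusted p 0.0267). The second APOBEC3F probe was at 2.76 with an adjusted p of 0.0815. APOBEC3B at -2.65 (adjusted p 0.676) did not pass, nor did APOBEC3G (adjusted p 0.182), APOBEC3H (adjusted p 0.13) and APOBEC3D (adjusted p 0.671), which were not above background on either array of 0 h. Both calls were lost without any 1 of the treated times and with time as a block, where the adjusted p was 0.0677 for APOBEC3C and 0.0611 for APOBEC3F. That of APOBEC3C was also lost with spike-in scaling (0.0546) and without the p53+/+ array of 48 h (0.0529).

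Of the 6 genes that flank the cluster, DNAL4, NPTXR, CBX6, CBX7, PDGFB and RPL3, 0 passed in either direction in limma in treated p53+/+ against treated p53-/- cells, with a median difference of -0.10 beside -0.012 over all probes tested. Over all probes 8.73% were higher and 8.85% lower, so 0 of 6 genes is near those shares. Over the 8 arrays the Pearson r of APOBEC3C with the 5 flanking genes that were above background on all arrays ran from -0.596 to 0.283, a description without a test.

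The promoter of APOBEC3H is shown because it is the only one of the 7 for which a RefSeq sequence was given here (GRCh38.p14, chr22:39096994-39097293, plus strand, 250 bases before to 50 bases after the start of the gene). Capitals mark its longest exact direct repeat, of 23 bases, whose second copy begins at the second base of the gene.

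APOBEC3H: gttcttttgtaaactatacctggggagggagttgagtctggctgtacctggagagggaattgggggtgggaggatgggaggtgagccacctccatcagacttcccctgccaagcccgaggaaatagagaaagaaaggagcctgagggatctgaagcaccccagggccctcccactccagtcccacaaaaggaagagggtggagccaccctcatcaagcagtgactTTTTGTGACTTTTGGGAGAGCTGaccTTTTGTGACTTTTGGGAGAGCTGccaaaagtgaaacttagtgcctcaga

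Of the motifs searched on both strands, none was found in it: the CHR element TTTGAA of cell cycle genes, which 15.4% of 27305 promoters of this length hold, the E2F-like TTCCCGC (6.56%), the interferon-response-like GAAANNGAA (8.29%), the kappa-B element (10.8%) and the p53 half-site (6.54%). These letters are not in this window, and nothing more follows about the factors.

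The genes whose levels ran most like those of the members were named by the highest Pearson r over the 8 arrays among 11828 genes above background on all of them. For APOBEC3C they were APOBEC3F (0.999), UBR1 (0.999), a ubiquitin ligase, and POLH (0.998), a translesion DNA polymerase. For APOBEC3F they were APOBEC3C (0.999), SNX2 (0.999), a sorting nexin, and POLH (0.998). POLH read 2.58 and 2.81 at 12 and 48 h with p53 and stayed at 0.38 to 0.66 without it, with 0.20 on the array labelled p53+/+ at 0 h. Such a course was common, with an r over 0.95 to APOBEC3C in 408 genes and to APOBEC3F in 423.

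APOBEC3B had 11 genes with an r over 0.95. The nearest were TK1, the thymidine kinase of dividing cells (0.975), REXO5 (0.972) and POC1A, a centriole protein (0.97). TK1 read 7.04, 7.47 and 2.25 with p53 at 12, 24 and 48 h, whereas it kept to 7.69, 8.26 and 8.18 without, so it too was low on the p53+/+ array of 48 h alone. The r of APOBEC3B with 6 genes of cycling cells measured on all arrays was 0.716 to 0.912, highest for CDK1. With 14 candidate regulators it was -0.347 to 0.894, with a median of 0.206. LIN9 was at 0.894, LIN54 at 0.87 and MYBL2 at 0.85, all parts of the MuvB complexes that bind cell cycle promoters. LIN52 and LIN37, parts of the same complexes, were at 0.303 and 0.074. How far these r rest on the p53+/+ array of 48 h, where APOBEC3B read -2.81, was not tested. At 24 h with p53 APOBEC3B read 2.83 and CDK1 2.71, beside 1.63 and 3.75 on the array labelled p53+/+ at 0 h. RELB, the factor of the non-canonical NF-kB route linked to APOBEC3B, was at -0.078.

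**Figure D3:**
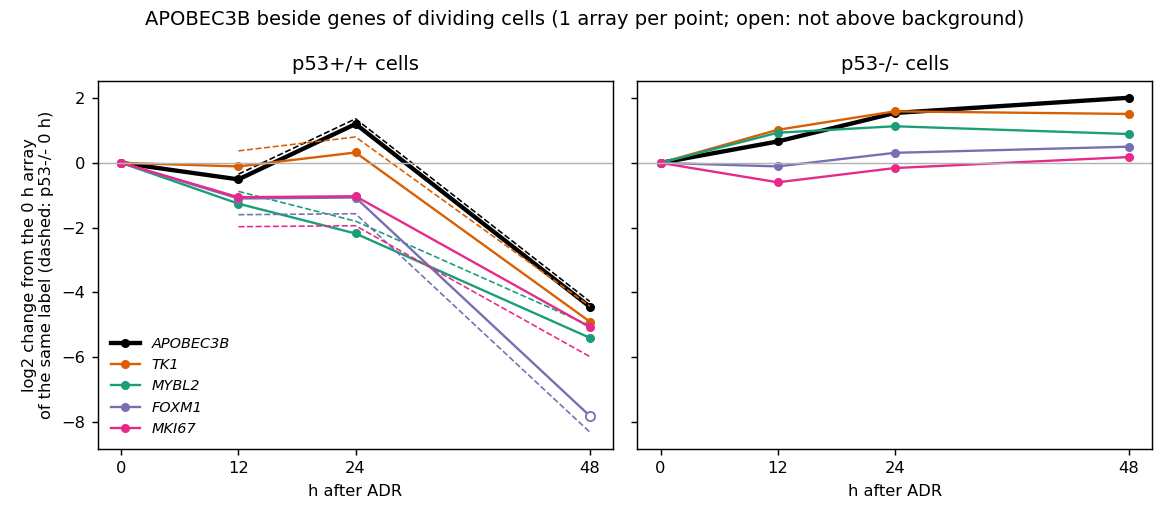
Log2 change from the 0 h array of the same label (vertical axis) against hours after ADR (horizontal axis) for APOBEC3B (black) and TK1, MYBL2, FOXM1 and MKI67, in p53+/+ cells (left) and p53-/- cells (right), with an open point where the level was not above background and dashed lines for the p53+/+ levels set against the p53-/- array at 0 h. All 5 genes are at their lowest in p53+/+ cells at 48 h, and APOBEC3B alone is more than 2-fold above 0 h at 24 h in p53+/+ cells, from either 0 h array.

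Of 10 genes of cycling cells, 4 were lower and 0 higher in treated p53+/+ cells in limma, beside 8.85% and 8.73% of all probes. The median of the list was -3.51 beside -0.012 over all probes. Without the p53+/+ array of 48 h the median was -1.98 and 10 of 10 were lower, and without the arrays of 24 h none passed. PLK1, a mitotic kinase, was at -3.59 (adjusted p 0.0102), CCNA2, cyclin A2, at -3.57 (adjusted p 0.0342) and CCNB1, cyclin B1, at -2.90 (adjusted p 0.0472). MYBL2, which turns on genes of late cell cycle phases, read 1.07, 0.15 and -3.07 with p53 at 12, 24 and 48 h, compared with 2.88, 3.08 and 2.84 without, but did not pass (adjusted p 0.0532 in limma). At 24 h APOBEC3B was thus near the p53-/- level in p53+/+ cells, and MYBL2 was not. Whether cell number, the share of dividing cells or RNA per cell lies behind such a level cannot be told apart in bulk RNA.

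Of the 15 candidate regulators of APOBEC3B, 3 were lower and 1 higher in treated p53+/+ cells, beside 8.85% and 8.73% of all probes. The median difference of the list was -0.61. Without the p53+/+ array of 48 h 5 were lower, MYBL2 and FOXM1 being added, and none passed without the arrays of 12 h or of 24 h. LIN9 was at -1.81 (adjusted p 0.0378) and LIN52 at -1.08 (adjusted p 0.0167), both core parts of MuvB, whereas RBL2, the p130 protein of the repressive form of the complex, was at 0.98 (adjusted p 0.0246). None of RELA, RELB, NFKB1 and NFKB2 passed, with differences of -0.31 to 0.35.

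Of 16 genes that remove uracil or repair the sites it leaves, 6 were lower and 0 higher in treated p53+/+ cells in limma. Over all probes 8.85% were lower and 8.73% higher. The median of the list was -0.47, and none of its genes passed without the arrays of 24 h. UNG, the main uracil DNA glycosylase, was at -2.55 (SE 0.22, adjusted p 0.00127). It read 2.07, 1.99 and 2.30 with p53 at 12, 24 and 48 h, 5.01, 4.61 and 4.40 without, and 4.15 and 3.53 at 0 h on the arrays labelled p53+/+ and p53-/-. MBD4, a glycosylase for mismatched thymine and uracil, was at -1.87 (adjusted p 0.00243), and DUT, the dUTPase that keeps uracil out of DNA, at -1.77 (adjusted p 0.00582). APEX1, APEX2 and PARP1 were the others that were lower.

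Among other restriction factors, 6 of 11 measured were higher and 1 lower in treated p53+/+ cells in limma, beside 8.73% and 8.85% of all probes. The median of the list was 0.97 beside -0.012 over all probes. TRIM22 and MARCHF8 were above background on no array but those of treated p53+/+ cells, so 2 of the 6 entered the fit by the side where they are high. Without the arrays of 12 h 3 were higher and without those of 24 h 2. TRIM22, which restricts retroviral transcription, read 2.74, 3.35 and 2.92 in p53+/+ cells at the treated times and was above background on no other array, at least 210.0-fold higher than in treated p53-/- cells. BST2, or tetherin, which holds virus particles at the cell surface, was at 6.36 (SE 0.47, adjusted p 0.000772), and TRIM5, which acts on retroviral capsids, at 2.08 (adjusted p 0.00442). IFI16, a DNA sensor, was the lower one, at -0.71 (adjusted p 0.0489).

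Of 14 interferon response genes, 1 was higher and 2 lower in treated p53+/+ cells, with a median of -0.01. Over all probes 8.73% were higher and 8.85% lower, and the counts of this list lie near those shares. STAT2 was the higher one at 1.02 (adjusted p 0.0467), while IFI44L was at -3.33 (adjusted p 0.00333) and IFITM1 at -2.32 (adjusted p 0.0125). Against 0 h the list's median was 1.38 in p53+/+ cells and 1.23 in p53-/- cells, with 1 gene that rose and 1 that fell in p53+/+ cells and 0 of either in p53-/- cells. Over all probes 3.83% rose and 3.07% fell in p53+/+ cells. With the p53-/- array at 0 h as the baseline the list's median in p53+/+ cells was 1.27. Between treated genotypes STAT2 did not pass without the arrays of any 1 treated time, and none passed without those of 24 h.

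Of the relatives outside the cluster, APOBEC1, APOBEC2 and APOBEC4 were above background on no array. ADAR and ADARB1, which deaminate adenosine in RNA, were above on all 8 and did not pass, at -0.17 (adjusted p 0.541) and 0.26 (adjusted p 0.407) in limma.

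**Figure D4:**
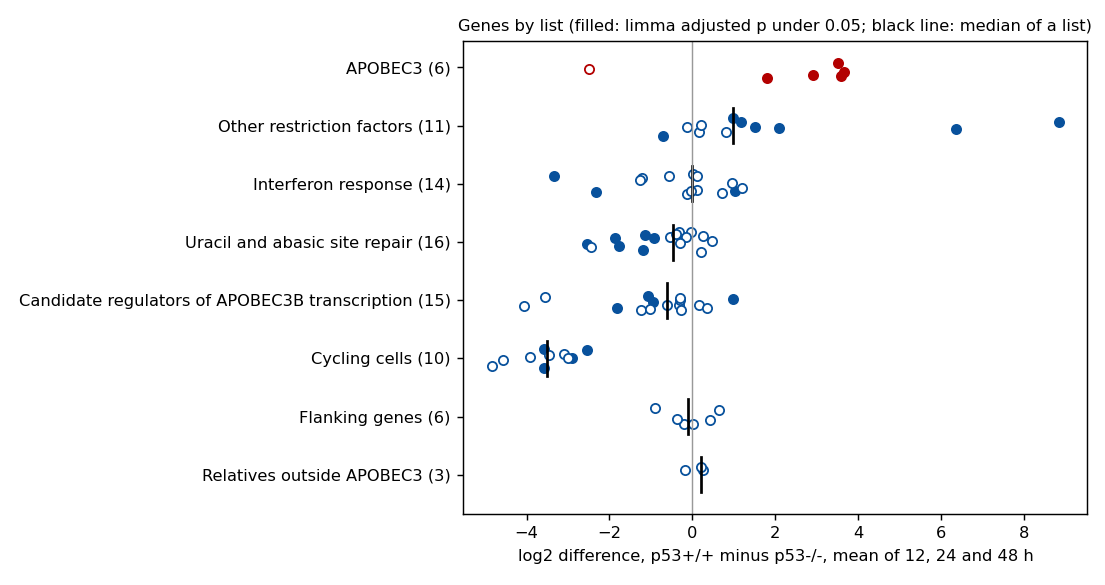
Difference in mean log2 level, treated p53+/+ minus treated p53-/- (horizontal axis) for the genes of each list (vertical axis, with the number tested), filled where the limma adjusted p was under 0.05, with a black line at the median of each list other than APOBEC3. The APOBEC3 genes that passed lie between 1.80 and 3.67, those of APOBEC3D, APOBEC3G and APOBEC3H resting in part on levels not above background, the medians of cycling and repair genes are at -3.51 and -0.47, and no flanking gene is filled.

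Several APOBEC3 genes are abundant in lymphocytes and myeloid cells, so markers of these cells were read beside them. Of 9 lymphocyte markers 4 were above background on no array, and the summed linear level of the list was 6.68 to 8.30 on the treated p53+/+ arrays and 6.11 to 6.88 on the treated p53-/- arrays, with 0 of 5 tested genes passing. CD4 alone made up most of it, and without CD4 the sums were 0.397 to 0.597 and 0.461 to 0.55. The counts of markers stand beside 8.73% of all probes higher and 8.85% lower in treated p53+/+ cells. Of 5 myeloid markers ITGAM was higher and CD14 lower in treated p53+/+ cells, ITGAM being above background on no other arrays and so entering the fit by its high side, and neither passed without the arrays of 12 h or of 24 h. The sum was 6.89 to 8.72 against 11.4 to 16.5. Basal epithelial markers moved with genotype, 7 of 10 being higher in treated p53+/+ cells, with a sum of 506.0 to 768.0 against 269.0 to 315.0, and none passed without the arrays of 24 h. Fibroblast markers moved the other way, with 3 of 3 tested lower and a sum of 7.25 to 8.66 against 95.4 to 120.0, nearly all of it DCN. Without DCN the sums were 0.0758 to 0.0933 and 0.49 to 1.01. Both of these lists differed by genotype, as APOBEC3C and APOBEC3F did, and their part in the result was not tested.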

How the data were processed

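MCF10A RNA of 2 genotypes at 4 times was hybridised to 8 Agilent SurePrint G3 arrays in 1 colour. The authors deposited the output of the scanner software (Agilent Feature Extraction 10.7.3.1, per the labels), whose header names the build hg19, and the values used are its processed signals, which are background-corrected linear intensities. The deposited series table repeats these 503808 values. The sources used here name no normalization for these arrays.

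Spots called uneven or outlying were left out. The log2 signal was averaged over a probe's spots, and the log2 of the array's 75th percentile over non-control probes was subtracted. A probe was well above background where over 50% of its spots were. Accessions matched 27227 probes (64.2%) to 20296 genes of RefSeq, and no match to TREX1 or LYZ was found. All 28947 probes that exceeded background somewhere entered a fit with limma 3.58.1 in R 4.3.3 (lmFit, eBayes, 4 residual degrees of freedom) and adjusted by Benjamini-Hochberg over all of them, at 0.05. The technical SE of a difference used the spot SD, by signal level, of 999 probes printed in 10 spots. That SD was divided by the root of the number of spots used, and the values of both arrays were combined. The fits were tested on simulated data with independent errors between arrays. That test does not cover the use of times in place of replicates. The number of arrays limits the precision.

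The members, lists, markers and motifs were chosen with earlier results of these data known. Named genes are the 7 members, in each list up to 3 genes with the largest difference among those that passed in treated p53+/+ against treated p53-/- cells, the 3 genes with the highest correlation to each member measured on all arrays, and CDKN1A. Some genes of the lists are not reported here. Others named (FOXM1, MKI67, MYBL2, RELB, CDK1, LIN54 and IFI16 among them) were chosen after their values were seen. Alternatives were other scalings and background corrections, filters, baselines, size rules, left-out arrays and time as a block. The percentile over spots and the fit without the p53+/+ array of 48 h were added after the data were examined. Python 3.11.15, numpy 2.4.6, pandas 2.3.3 and matplotlib 3.10.9 were used.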

Additional observations from a re-analysis of the deposited data

Results flagged for a closer look

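The interaction of genotype and ADR was 3.92 on the log2 scale for APOBEC3C and 4.03 for APOBEC3F. Both passed an adjusted p of 0.05 in limma. Both calls were lost without the arrays of any 1 treated time and with time as a block. The second APOBEC3F probe did not pass, at 2.76 with an adjusted p of 0.0815 in limma. The estimates also rest on the array labelled p53+/+ at 0 h, whose label is in doubt. For APOBEC3C the 3 treated p53+/+ arrays were 3.54, 4.33 and 4.06 above the array labelled p53+/+ at 0 h, and the p53-/- arrays were -0.16, -0.11 and 0.44 from theirs. Against the p53-/- array at 0 h the treated p53+/+ arrays were 3.14, 3.92 and 3.66 above. For APOBEC3A the readings drifted up in p53+/+ cells and down in p53-/- cells at all 3 times, by 0.79 on average between them. These are readings of a probe not well above background on any array, so 0.79 is not a measured change, and APOBEC1, likewise undetected, drifted in the same order. This difference was not tested.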

How the results depend on the processing

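Of 360 refits of single members under an alternative, 316 kept their direction and side of the threshold, 24 lost the call, 6 gained it (3 of them by the shared baseline below) and 14 changed sign without a call. In treated p53+/+ against treated p53-/- cells, the 5 members called became 2 with probes above background on all 8 arrays (fewer genes tested), 3 without the 12 h arrays and 2 without the 24 h arrays. In the interaction, the 2 called became 1 with spike-in scaling and without the p53+/+ 48 h array, 0 without the 12, 24 or 48 h arrays and with time as a block, and 5 when the p53-/- sample at 0 h served both genotypes as baseline, where the interaction is by construction the difference between treated genotypes and adds nothing to it. In p53+/+ cells against 0 h, the 4 called became 2 with probes above background on all arrays and 0 without the 24 h arrays. With at least 2 of 3 times, APOBEC3B (1 member) entered the rises in p53-/- cells and the genes at least 2-fold below p53-/- cells. Leaving out arrays removes residual degrees of freedom; otherwise the cause was not tested. The change of APOBEC3B in p53+/+ cells turned to 0.02 with spike-in scaling, and to 0.35 both without the 48 h arrays and without the p53+/+ 48 h array. In p53-/- cells, where no member was called, the sign turned for APOBEC3C without the 48 h arrays (-0.13), for APOBEC3D with normexp (-0.12) and the signal floor (-0.20), for APOBEC3F with no scaling (0.28), spike-in scaling (0.25), the mean of all probes (0.18) and without the 12 h arrays (0.07), for APOBEC3G with normexp (-0.08), the floor (-0.12) and without the 48 h arrays (-0.08), and for APOBEC3H with the floor (-0.09). Without a filter APOBEC3A was also called higher in treated p53+/+ cells, at levels under background. Over all probes the 5087 calls between treated genotypes became 11863 without a filter, 9393 with no scaling, 7969 with spike-in scaling, 8508 with the floor, 2734, 297 and 2725 without the 12, 24 or 48 h arrays. The 505 interaction calls became 1296, 889, 1139 and 892 with no scaling, spike-in scaling, normexp and the floor, 36, 0 and 0 without the 12, 24 or 48 h arrays and 44 with time as a block. The 1999 calls in p53+/+ cells became 99 without the 24 h arrays, and the 14 in p53-/- cells ranged from 0 to 44. Size rules with spike-in scaling could not be run in p53+/+ cells, as 1 array has no spike-ins. With 1 array per condition the genotypes could be paired only by time, and the fit with time as a block does this. Dim probes, of APOBEC3A, APOBEC3D, APOBEC3G and APOBEC3H, are limited by signal over background.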
